A study of Danio rerio with 20 samples.

Results

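Axon guidance ligands and their receptors were followed in olig2 reporter cells of the zebrafish spinal cord, 7 days after a lesion and after a sham operation. The genes were chosen by name: every row whose symbol, with case ignored, begins with sema, plxn, nrp1, nrp2, efna, efnb, epha, ephb, slit1 to slit3, robo, ntn1 to ntn5, unc5, dcc or rtn4. This gave 105 of the 32266 genes in the table, namely 54 ligands, 49 receptors and 2 genes that only share the prefix. The 2 were RTN4IP1, a mitochondrial protein that binds reticulon 4, and UNC50, a Golgi protein. The ligands were 30 semaphorins, 13 ephrins, 4 Slits, 5 netrins and 2 Nogo genes. The receptors were 13 plexins, 4 neuropilins, 16 Eph receptors, 4 Robos, 6 Unc5 receptors, Dcc and 5 Nogo receptors. Symbols are printed as the annotation gives them, often in human capitals, and 34 of the genes share their symbol with a second zebrafish gene, so that the identifier or chromosome is given for those.

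Both groups were adult fish of the line Tg(olig2:eGFP), in which the olig2 promoter drives a green fluorescent protein. In the lesion group the cord was cut 5 mm behind the junction of brainstem and spinal cord, and in the sham group it was exposed to the same operation and left intact. Living reporter-positive cells were sorted from pieces of 9 cords per group, each about 0.5 mm long, which were dissociated together. Each group has 10 libraries. Nothing in the labels says that they came from separate fish, and all 10 may have been drawn from a single suspension, in which case the p-values reflect technical spread alone.

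Axon guidance molecules steer growing axons and migrating cells by attraction or repulsion at short or long range. Semaphorins act through plexins, in the case of the secreted class 3 members together with a neuropilin. Ephrins are bound to the cell surface and signal to Eph receptor kinases on the neighbouring cell, which can also signal back. Slits act through Robo receptors, and netrins act through Dcc and Unc5 receptors. Nogo, the product of rtn4, is known in mammals as a protein of central myelin that limits axon growth through the Nogo receptor. The zebrafish Nogo orthologs lack the mammalian Nogo-A-specific region, and fish regrow axons through the injured cord. In mammals, cells of the oligodendrocyte lineage carry many of these molecules as guides for their own migration and as signals to axons.

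The totals of the libraries lay between 7134670 and 10264810 counts. On average 3 counts amounted to 0.369 CPM in lesion libraries and 0.370 CPM in sham libraries (CPM, read counts relative to library size, with libraries scaled by TMM, the trimmed mean of M values), which is the most that a library without a count allows, counting error only. Detected genes numbered 14890 ± 1022 per lesion library and 11947 ± 854 per sham library (mean ± SD, n = 10 each). The labels call the cells oligodendrocyte progenitors. OLIG2 averaged 7490 CPM in lesion libraries and 8302 CPM in sham libraries, and OLIG2 and SOX10 had counts in all 20 libraries. PDGFRA, a defining progenitor marker in mammals, was seen in 1 lesion library, with 2 counts, and in 1 sham library, with 156 counts. In contrast, olig1 had counts in all 20 libraries, NKX2-2 in 8 lesion and 9 sham libraries, and CSPG4 in 7 lesion and 6 sham libraries. Of 12 tested genes of the oligodendrocyte lineage list 1 rose and 3 fell. The myelin gene mbpb was higher, at 2925 CPM in lesion libraries and 602 CPM in sham libraries, and mbpa was lower, at 14622 CPM in lesion libraries and 30587 CPM in sham libraries. These markers do not settle the stage of the cells, and the name olig2 reporter cells is used. A level in such bulk libraries cannot tell a lower number of expressing cells from less RNA per cell.

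Of the 105 genes, 102 had at least 1 count, and 31 passed the filter on low counts and were tested. The tested genes were 15 ligands, 14 receptors and the 2 prefix-only genes. 1 gene rose after lesion, the Nogo gene rtn4a, and 1 fell, the ephrin gene EFNA1 on chromosome 19 (edgeR quasi-likelihood test, adjusted p under 0.05 over 10467 genes). That is 6.45% of the tested guidance genes, beside 7.58% of all genes tested. For higher genes alone the share of all genes was 4.34%, and for lower genes 3.24%. Both calls were ligands. None of the 14 tested receptors passed in edgeR, 2 had an unadjusted p under 0.05, and DESeq2 called 0 of them and limma-voom 1, EPHB3 on chromosome 2, in fits that called 10.5% of all genes with DESeq2 and 16.9% with limma-voom. An unadjusted p under 0.05 was found for 22.6% of the tested guidance genes and for 15.7% of all genes tested. The median log2 fold change of lesion over sham was 0.02 for the 15 tested ligands and -0.25 for the 14 tested receptors, beside 0.03 for all genes. Of the 31 genes, 16 lay above 0 and 15 below.

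**Figure D1:**
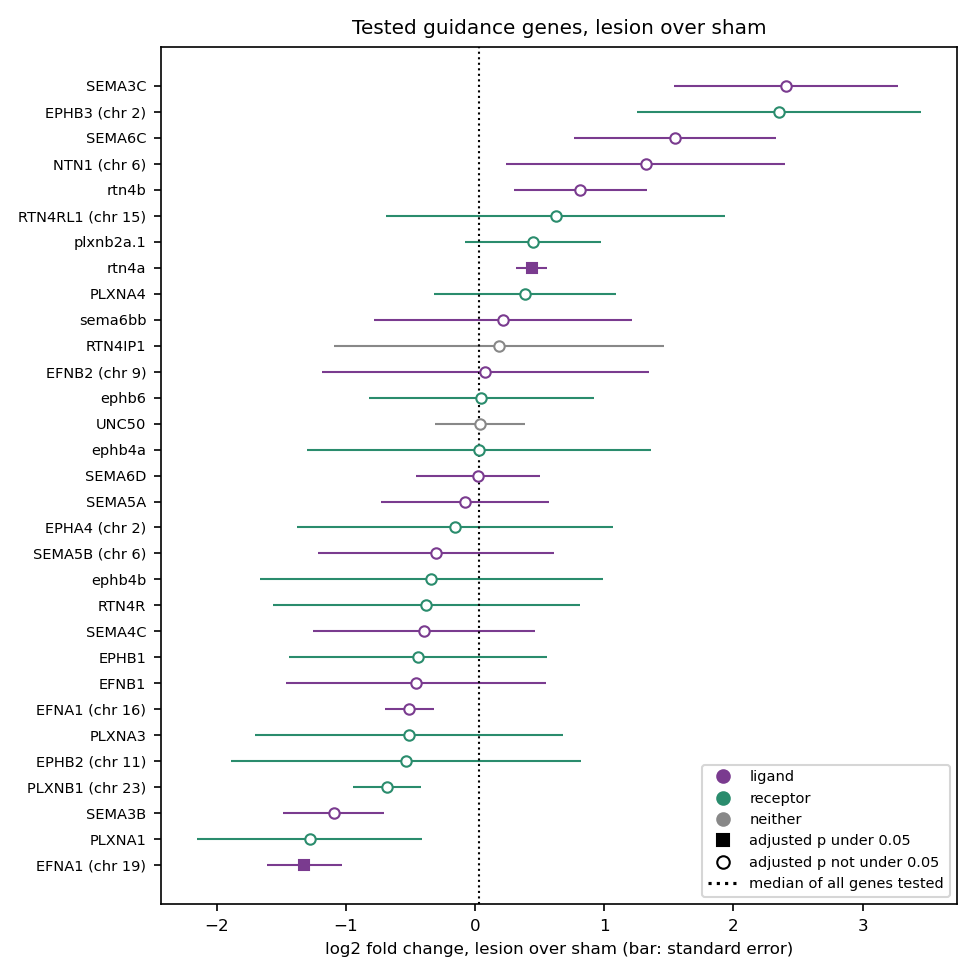
Log2 fold change of lesion over sham (x axis, bars are standard errors) for the 31 tested guidance genes, coloured by role, with squares for an adjusted p under 0.05 and a dotted line at the median of all genes tested. The 2 squares are rtn4a, at 0.44, and EFNA1 on chromosome 19, at -1.32, and wide bars accompany the largest estimates above 0, SEMA3C and EPHB3 on chromosome 2.

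The Nogo gene rtn4a had the most abundant of the ligand transcripts per exon length, and it was higher after lesion. For rtn4a (ENSDARG00000044601, GRCz10 chromosome 6, 6073843 to 6101282, minus strand) the lowest, median and highest levels were 1607, 2334 and 3186 CPM in lesion libraries, against 1126, 1788 and 1941 CPM in sham libraries. The groups overlapped, and 8 of the 10 lesion libraries lay above the highest sham library. The log2 fold change of lesion over sham was 0.44 ± 0.12 (SE), with an adjusted p of 0.0202 in edgeR's quasi-likelihood test. Lesion replicate 3, at 3186 CPM, carried part of this call, since the log2 fold change was 0.35 without it and the adjusted p 0.0664.

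Its paralog rtn4b on chromosome 13 had 37.8, 60.9 and 91.8 CPM in lesion libraries (lowest, median, highest), against 0, 30.7 and 65.9 CPM in sham libraries. The groups overlapped, and the log2 fold change of 0.82 ± 0.52 did not pass (adjusted p = 0.540, edgeR). Scaled for exon length as TPM (counts per kilobase of exon scaled to a common sum per library), rtn4a averaged 1411 ± 222 TPM in lesion libraries and 1151 ± 166 TPM in sham libraries, while rtn4b averaged 35.3 ± 10.2 TPM in lesion libraries and 22.0 ± 11.3 TPM in sham libraries (SD, n = 10 each). rtn4a alone made up 59.6% to 84.9% of all ligand TPM in lesion libraries and 45.1% to 71.4% in sham libraries.

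The receptor side of the Nogo pair was far lower. RTN4R on chromosome 5, the receptor that binds Nogo at the cell surface, had 0, 9.97 and 54.1 CPM in lesion libraries, against 0, 7.99 and 51.8 CPM in sham libraries. Both groups held libraries without a count, 2 of lesion and 3 of sham, and spanned nearly the same range. The log2 fold change was -0.38 ± 1.19 (adjusted p = 0.972, edgeR), and its 95% interval of -2.71 to 1.96 leaves room for several-fold differences in either direction. In TPM, RTN4R averaged 11.7 ± 13.1 in lesion libraries and 16.7 ± 19.5 in sham libraries. The receptor-like gene RTN4RL1 on chromosome 15 had counts in 6 lesion libraries and 4 sham libraries, with a log2 fold change of 0.62 ± 1.31. The remaining 3 Nogo receptor genes were not tested, and 2 of them, rtn4rl2a and rtn4rl2b, had at most 1 count in either group.

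Ephrin transcripts of the A class were lower after lesion in 1 of the 2 genes that could be tested. Ephrins A are held at the membrane by a lipid anchor and bind mainly EphA receptors. EFNA1 on chromosome 19 (ENSDARG00000030326, 8562877 to 8583396, plus strand) had 21.6, 30.3 and 73.4 CPM in lesion libraries, against 42.3, 96.6 and 172 CPM in sham libraries. Of the lesion libraries, 7 lay below the lowest sham library, and 8 sham libraries lay above the highest lesion library. The log2 fold change was -1.32 ± 0.29 with an adjusted p of 0.0035 (edgeR), and leaving out any 1 library kept the call, with adjusted p between 0.0012 and 0.0086.

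The second EFNA1 gene, on chromosome 16 (ENSDARG00000018787, 23367623 to 23383117), had 101, 123 and 206 CPM in lesion libraries, against 122, 190 and 288 CPM in sham libraries. Its log2 fold change of -0.51 ± 0.19 did not pass (adjusted p = 0.132, edgeR), although DESeq2's own test gave an adjusted p of 0.0353. The ephrin A genes summed to 160 ± 42.7 TPM in lesion libraries and 286 ± 72.9 TPM in sham libraries, most of it from these EFNA1 copies. The other 7 ephrin A genes had too few counts to be tested. Among them efna4 had 5 counts in 3 lesion libraries and 362 counts in 6 sham libraries, of which 349 lay in sham replicate 4. Reads that fit more than 1 paralog may have been divided between copies or lost in counting.

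Ephrins B, which cross the membrane and can signal into their own cell, gave no call. EFNB2 on chromosome 9 had 0, 13.2 and 28.2 CPM in lesion libraries, against 0, 0.896 and 78.6 CPM in sham libraries, with a log2 fold change of 0.08 ± 1.27. EFNB1 had 0, 2.73 and 14.1 CPM in lesion libraries, against 0, 4.21 and 24.6 CPM in sham libraries, with a log2 fold change of -0.46 ± 1.01. Both genes ranged widely within each group. EFNB3, not tested, had 54 counts in 3 lesion libraries and 261 counts in 3 sham libraries, 216 of them in sham replicate 3.

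The Eph receptors were low and patchy, and the most uneven of them was an EphA receptor. epha2a (ENSDARG00000017354, chromosome 6, 45872713 to 45903864, minus strand) had 1920 counts in 9 lesion libraries and 5 counts in 1 sham library. Its levels were 0, 22.5 and 74.8 CPM in lesion libraries, against 0, 0 and 0.609 CPM in sham libraries. The 9 lesion libraries with a count, from 3.82 CPM upward, all lay above the highest sham library, and lesion replicate 8 had none. The filter kept epha2a out of the test, so that it has no call of its own. In fits that leave out libraries it can enter only through the lesion group, where it is high, so those fits are no further test of it. With no filter on low counts its log2 fold change was 8.31 and its adjusted p 0.00024, in a fit that called 14.7% of all genes with a count. These fitted folds rest on 5 sham counts and are no bound.

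The paralog epha2b on chromosome 23 had 216 counts in lesion libraries and 9 counts in sham libraries. Of its lesion counts, 148 lay in replicate 8 and 67 in replicate 3. Of the EphA receptors only EPHA4 on chromosome 2, the receptor with the broadest ephrin binding in mammals, was tested. It had 0, 12.1 and 33.7 CPM in lesion libraries, against 0, 3.92 and 42.3 CPM in sham libraries, and its log2 fold change was -0.16 ± 1.22 (adjusted p = 0.991, edgeR). Summed over the 8 EphA genes, the level was 19.9 ± 8.47 TPM in lesion libraries and 7.81 ± 7.22 TPM in sham libraries. Without epha2a it was 8.45 ± 4.61 TPM in lesion libraries and 7.78 ± 7.25 TPM in sham libraries, so that nearly all of the difference in the sum came from epha2a.

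Of 6 tested EphB receptors, which mainly bind ephrins B, none passed. EPHB3 on chromosome 2 (ENSDARG00000031548, 8125959 to 8219574) came closest, with 0.107, 27.0 and 56.7 CPM in lesion libraries, against 0, 0.328 and 20.5 CPM in sham libraries. In 7 lesion libraries it was above the highest sham library. The log2 fold change was 2.35 ± 1.098 with an adjusted p of 0.289 in edgeR and 0.0327 in limma-voom. The other 5 tested EphB genes had log2 fold changes from -0.53 to 0.05, each smaller than its standard error.

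**Figure D2:**
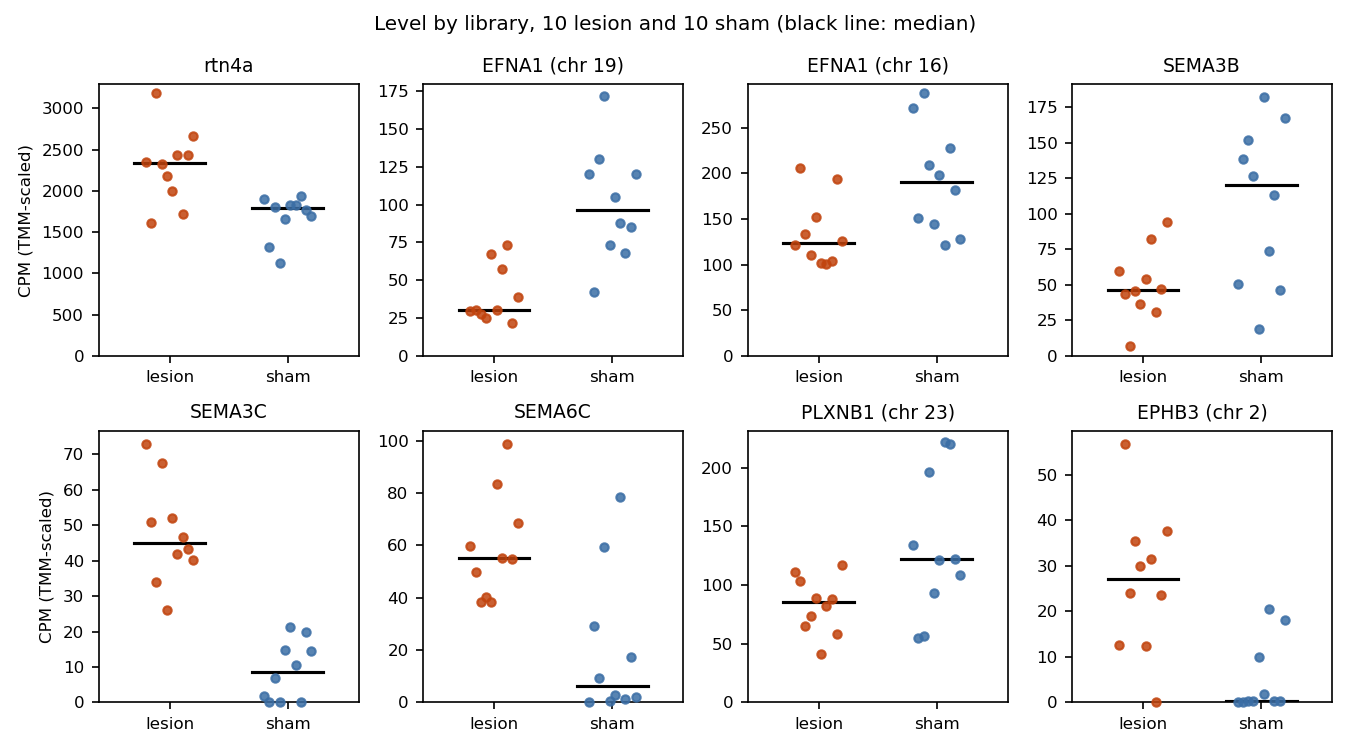
Level in CPM (y axis) of single guidance genes in each of the 10 lesion and 10 sham libraries, with points for libraries and black lines for medians. rtn4a was higher and EFNA1 on chromosome 19 lower in lesion libraries with overlap between groups, while the SEMA3C points of the groups do not overlap.

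The semaphorins were the largest family, and none of its 8 tested members passed the threshold. In class 3, the secreted semaphorins, the 2 tested genes lay on opposite sides of 0. SEMA3C (ENSDARG00000034300, chromosome 4, 22892650 to 22931969) had 26.2, 45.0 and 72.9 CPM in lesion libraries, against 0, 8.67 and 21.2 CPM in sham libraries. Every lesion library lay above every sham library, which held for 1 of the 31 tested guidance genes. Over all genes tested, groups did not overlap for 2.01%, and lesion was the higher group for 1.45%. The log2 fold change was 2.41 ± 0.87, with an adjusted p of 0.109 in edgeR, 0.0243 in DESeq2 and 0.0018 in limma-voom. The largest adjusted p of the other settings was 0.972.

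SEMA3B on chromosome 8 had 7.07, 46.4 and 94.4 CPM in lesion libraries, against 19.2, 120 and 182 CPM in sham libraries. The groups overlapped, and the log2 fold change was -1.09 ± 0.39 (adjusted p = 0.103, edgeR). It passed in DESeq2's own test and also without sham replicate 5, with an adjusted p of 0.0326 in each. The other 10 class 3 genes were too low to test. Of these, SEMA3F on chromosome 6 had 197 counts in all 10 lesion libraries, 102 of them in replicate 9, and 38 counts in 9 sham libraries. SEMA3E had 142 counts in 5 lesion libraries and 3 counts in 3 sham libraries. sema3aa and SEMA3G had 43 and 32 counts in lesion libraries, and no count in sham libraries. Most of these lay in 1 library each, 37 of sema3aa in lesion replicate 10 and 28 of SEMA3G in lesion replicate 7. sema3ga had 303 counts in 10 lesion libraries and 98 counts in 10 sham libraries. Of the 102 guidance genes with a count, 8 had counts in lesion libraries only and 4 in sham libraries only. Over all 23989 genes with a count, these numbers were 3395 and 1522.

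The most abundant semaphorin was a transmembrane one. SEMA5A, a class 5 member with thrombospondin repeats that in mammals can attract or repel axons, had 36.9, 728 and 972 CPM in lesion libraries, against 0, 657 and 1175 CPM in sham libraries. Its log2 fold change was -0.08 ± 0.65 (adjusted p = 0.991, edgeR), with a 95% interval of -1.35 to 1.20, and its sign changed under other settings. In TPM it averaged 192 ± 115 in lesion libraries and 222 ± 149 in sham libraries, next after rtn4a among the ligands.

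Class 6 members are transmembrane proteins that bind plexins A directly. SEMA6C on chromosome 16 had 38.3, 55.1 and 98.8 CPM in lesion libraries, against 0, 6.24 and 78.6 CPM in sham libraries. Its log2 fold change was 1.55 ± 0.78, with an adjusted p of 0.359 in edgeR and 0.0054 in limma-voom. SEMA6D on chromosome 18 had 38.9, 72.1 and 144 CPM in lesion libraries, against 1.34, 91.5 and 131 CPM in sham libraries. Its log2 fold change was 0.02 ± 0.48, with a 95% interval of -0.92 to 0.96, and 166 of its exon bases overlap a gene on the opposite strand, which counting without strand cannot separate. sema7a, the lipid-anchored class 7 member, had 326 counts in 2 lesion libraries and no count in sham libraries. sema4ab had 14 counts in 3 lesion libraries and 373 counts in 3 sham libraries.

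Plexins summed to 40.3 ± 10.6 TPM in lesion libraries and 51.1 ± 16.7 TPM in sham libraries, beside 44.8 ± 12.3 TPM and 28.6 ± 8.66 TPM for the 16 Eph receptors in lesion and in sham libraries. PLXNB1 on chromosome 23 (ENSDARG00000075821, 10003266 to 10202416), whose mammalian ortholog is the receptor of SEMA4D, had 41.5, 85.3 and 117 CPM in lesion libraries, against 54.8, 122 and 222 CPM in sham libraries. The groups overlapped, and the log2 fold change of -0.68 ± 0.26 did not pass (adjusted p = 0.150, edgeR). plxnb2a.1 had 10.6, 37.8 and 80.1 CPM in lesion libraries, against 0.718, 22.3 and 66.6 CPM in sham libraries, with a log2 fold change of 0.45 ± 0.53. A further gene on the same strand covers 1632 of its 7410 exon bases, so reads there could not be assigned to one of them. PLXNA1, a plexin that serves class 3 and class 6 semaphorins, had 2.34, 7.62 and 23.6 CPM in lesion libraries, against 0, 26.6 and 66.4 CPM in sham libraries. Its log2 fold change was -1.28 ± 0.87 (adjusted p = 0.605, edgeR).

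Several plexins and neuropilins without a test had more counts in lesion libraries and were found in more of them. Over all genes with a count, 56.7% were found in more lesion than sham libraries. The second PLXNB1 gene, on chromosome 6 (ENSDARG00000017211), had 580 counts in 6 lesion libraries, 317 of them in replicate 10, and 1 count in 1 sham library. A further gene on the same strand covers 758 of its 10266 exon bases. NRP1 on chromosome 24, a co-receptor for class 3 semaphorins and for VEGF, had 722 counts in 6 lesion libraries and 48 counts in 5 sham libraries. Of its lesion counts, 360 lay in replicate 4. NRP2 on chromosome 9 had 393 counts in 8 lesion libraries and 9 counts in 4 sham libraries. plxnd1, the receptor of SEMA3E in mammals, had 165 counts in all 10 lesion libraries and 9 counts in 6 sham libraries, and PLXNA2 had 229 counts in 10 lesion libraries and 46 counts in 8 sham libraries. PLXNC1, the receptor of sema7a in mammals, had 444 counts in 4 lesion libraries, 337 of them in replicate 5, and 202 counts in 3 sham libraries. Other genes of these families had more counts in sham libraries, most of them in 1 library. nrp1b had 2 counts in 2 lesion libraries and 94 in 4 sham libraries, 91 of them in sham replicate 5. plxnb3 had 57 counts in 9 lesion libraries and 222 in 9 sham libraries, 128 of them in sham replicate 7. NRP2, plxnd1, PLXNA2, nrp1b and plxnb3, like the untested ephrins and semaphorins above, were chosen for naming after their counts were seen.

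None of the 4 Slits and 4 Robos passed the filter. SLIT3 and ROBO3 had the most counts of their families, more of them in lesion than in sham libraries. SLIT3 (ENSDARG00000034268, chromosome 14, 24194573 to 24463916) had 2899 counts in 7 lesion libraries and 13 counts in 2 sham libraries, or 0, 19.0 and 101 CPM in lesion libraries, against 0, 0 and 1.44 CPM in sham libraries. ROBO3 (chromosome 10, 31414255 to 31619799), the Robo that in mammals governs midline crossing of commissural axons, had 2337 counts in 7 lesion libraries and 247 counts in 3 sham libraries, or 0, 28.1 and 74.8 CPM in lesion libraries, against 0, 0 and 29.9 CPM in sham libraries. The same 6 lesion libraries, replicates 1, 2, 3, 4, 9 and 10, held counts of both genes. SLIT3 also had counts in lesion replicate 6, and ROBO3 in lesion replicate 8.

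With no filter on low counts, SLIT3 was called (log2 fold change 7.70, adjusted p = 0.0031, edgeR), a fold that rests on 13 sham counts, and ROBO3 was not (3.06, adjusted p = 0.226). Within row B of the sample titles SLIT3 was not called (6.15, adjusted p = 0.386, edgeR). Without lesion replicates 1, 5, 6 and 8, which had 134, 0, 51 and 0 counts of it, it was called (8.30, adjusted p = 0.0016, edgeR). It passed the filter in these fits mostly through lesion libraries, where it is high, so neither is a further test of it. ROBO3 entered 11 of the 20 fits that left out 1 library and was called in 0 of them, with adjusted p from 0.376 to 0.476. The library left out in these fits had 0 or 1 count of ROBO3, so they are no further test of it either. ROBO2 had 276 counts in lesion libraries and 151 counts in sham libraries. The endothelial robo4 had 73 counts in lesion libraries, 70 of them in replicate 6, and 8 counts in sham libraries. SLIT1 and SLIT2 had at most 31 counts per gene in lesion libraries and at most 53 counts per gene in sham libraries.

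**Figure D3:**
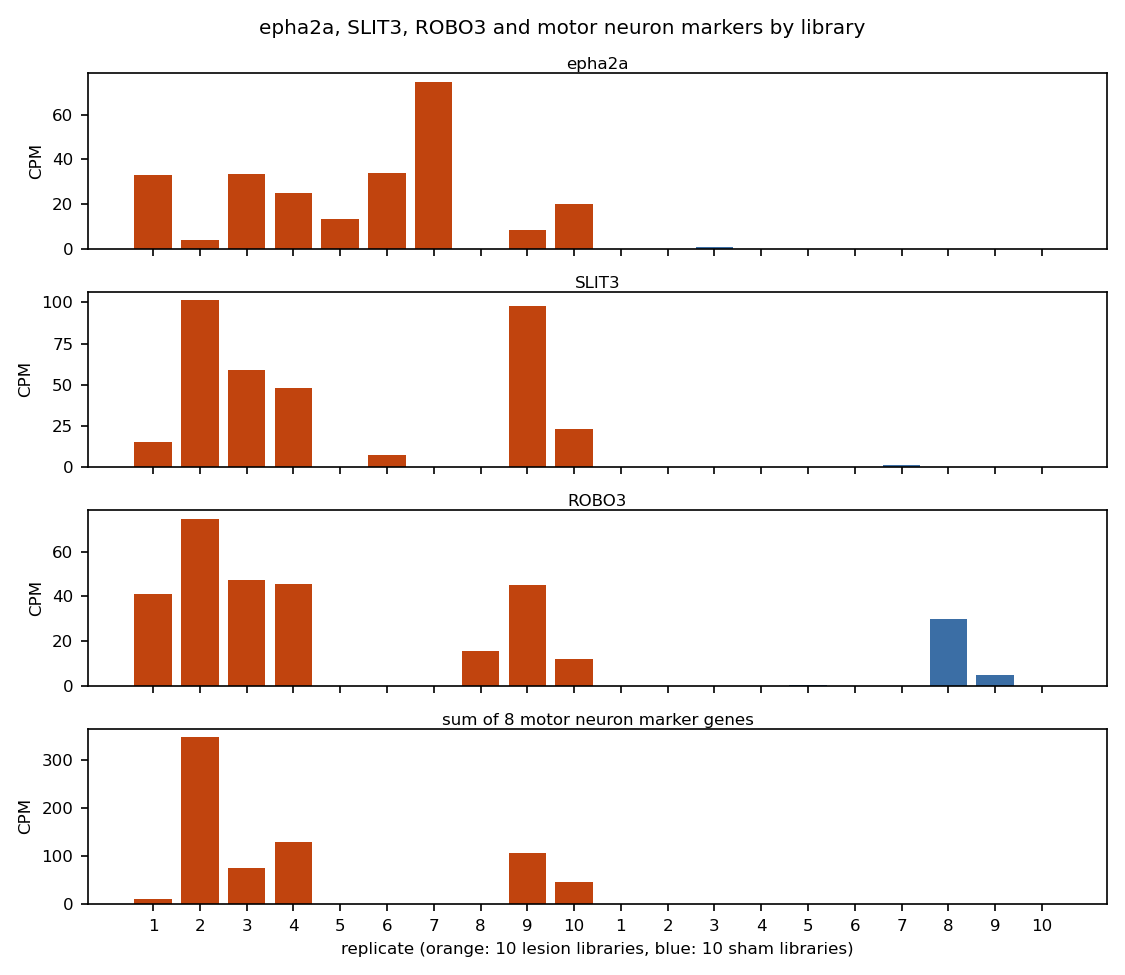
Level in CPM (y axes) of epha2a, SLIT3, ROBO3 and the sum of 8 motor neuron marker genes in each library (x axis: replicate, orange for lesion and blue for sham). The motor neuron markers reach 348 CPM in lesion replicate 2 and at most 0.286 CPM in any sham library, and SLIT3 is also highest in lesion replicate 2.

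The lesion libraries with counts of both SLIT3 and ROBO3 were also those with motor neuron markers. Motor neurons arise from olig2-expressing progenitors. The 8 marker genes (MNX1, ISL1, both ISL2 genes, CHAT, SLC18A3 and both SLC5A7 genes) had no tested member. Their summed level was 0 to 348 CPM in lesion libraries, with a median of 28.5 CPM, against 0 to 0.286 CPM in sham libraries. Nearly all of it lay in lesion replicates 1, 2, 3, 4, 9 and 10, with 10.4, 348, 75.2, 129, 105 and 46.6 CPM. Lesion replicates 5, 7 and 8 had none and replicate 6 had 0.277 CPM. epha2a had counts in replicates 5, 6 and 7, at 13.0, 33.7 and 74.8 CPM, where these markers were at or near 0. SLIT3 was at 7.06 CPM in lesion replicate 6, beside 0.277 CPM of the markers. In sham replicate 7 it was at 1.44 CPM, where they were at 0. ROBO3 was also found apart from the markers, at 15.3 CPM in lesion replicate 8, where they were at 0, and at 29.9 CPM in sham replicate 8, where they were at 0.286 CPM. NRP1 had counts in 5 of the 6 marker-bearing libraries, at 3.45, 17.0, 46.4, 11.4 and 4.10 CPM in lesion replicates 2, 3, 4, 9 and 10, and at 8.92 CPM in lesion replicate 7, where the markers were at 0. The part of such cells in the SLIT3, ROBO3 and NRP1 counts was not tested.

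Of the netrin system, NTN1 on chromosome 6 was the 1 gene tested. Netrin-1 attracts axons through Dcc and repels them through Unc5 receptors. It had 0, 3.50 and 12.8 CPM in lesion libraries, against 0, 0.676 and 11.5 CPM in sham libraries, with a log2 fold change of 1.32 ± 1.08 (adjusted p = 0.718, edgeR). DCC had 56 counts in 9 lesion libraries and 7 counts in 6 sham libraries, with at most 12 counts in a lesion library and 2 in a sham library. The Unc5 genes were near 0 apart from UNC5C on chromosome 5, which had 27 counts in 5 lesion libraries and 456 counts in 6 sham libraries, most of them in sham replicates 3 and 1 with 265 and 133 counts. DCC and UNC5C, like ROBO2, robo4 and epha2b above, were chosen for naming after their counts were seen.

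Summed over their genes, ligand transcripts were more abundant than receptor transcripts in both groups. The ligands in the order below made up most of the ligand sum. In TPM, ligands without rtn4a summed to 548 ± 153 in lesion libraries and 663 ± 152 in sham libraries, and receptors to 117 ± 24.5 in lesion libraries and 109 ± 32.7 in sham libraries (SD, n = 10 each). Among ligands, the mean TPM over all 20 libraries ran in the order rtn4a, SEMA5A, EFNA1 on chromosome 16, EFNA1 on chromosome 19, SEMA6D and rtn4b. The values were 1281, 207, 161, 52.3, 32.8 and 28.7 TPM. SEMA5A and EFNA1 on chromosome 16, and likewise SEMA6D and rtn4b, differed by less than the SD of the first of each pair in either group. EFNA1 on chromosome 19 averaged 28.1 TPM in lesion libraries, below SEMA6D at 31.4 TPM, and 76.6 TPM in sham libraries, above SEMA6D at 34.1 TPM. Among receptors the order was PLXNB1 on chromosome 23, RTN4R, plxnb2a.1, EPHB3 on chromosome 2, epha2a and EPHA4 on chromosome 2, with 24.1, 14.2, 8.31, 6.57, 5.75 and 5.28 TPM. Every receptor in this order lay within the larger SD of its neighbour in the order.

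**Figure D4:**
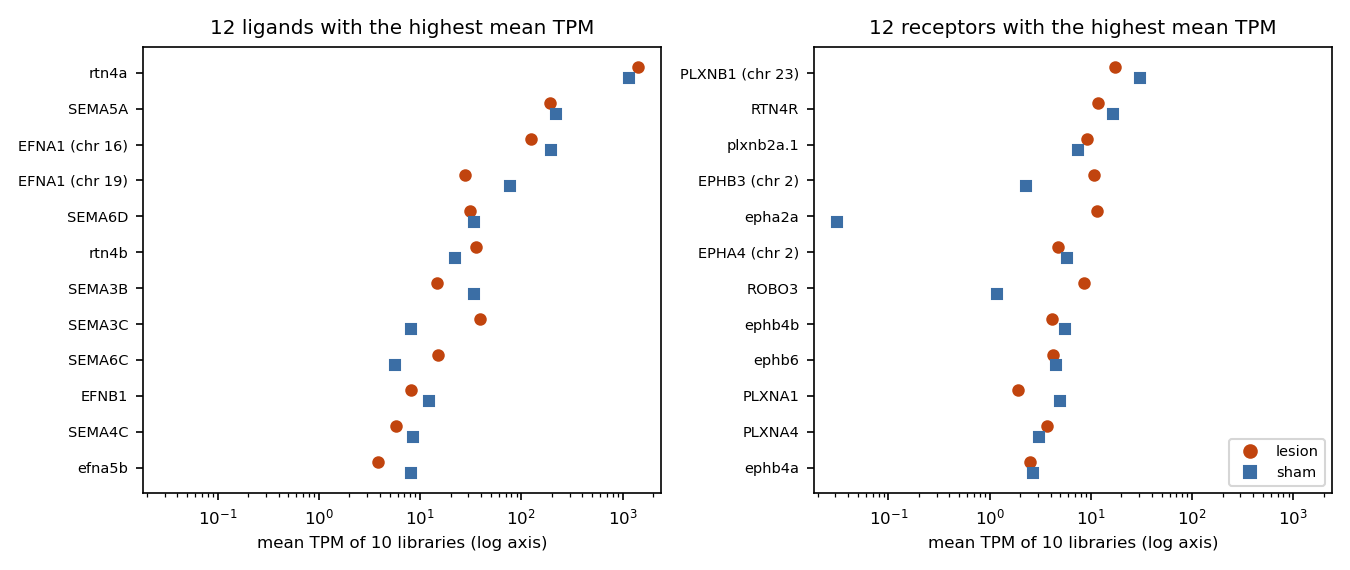
Mean TPM of 10 lesion libraries (circles) and 10 sham libraries (squares) on a log axis for the 12 ligands and the 12 receptors with the highest mean over all libraries. rtn4a, at 1411 TPM in lesion libraries and 1151 TPM in sham libraries, exceeds every receptor, the highest of which is PLXNB1 on chromosome 23 at 17.5 TPM in lesion libraries and 30.8 TPM in sham libraries.

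More guidance genes had a count in lesion libraries, in both roles. A lesion library held counts of 61.5 ± 5.50 of the 105 genes and a sham library of 50.4 ± 5.54 (SD, n = 10 each). With each library thinned to 7134670 counts the values were 59.4 ± 4.95 in lesion libraries and 49.2 ± 5.29 in sham libraries. Ligands accounted for 30.1 ± 2.81 genes in lesion libraries and 25.2 ± 2.94 in sham libraries, and receptors for 29.5 ± 3.44 genes in lesion libraries and 23.7 ± 3.16 in sham libraries. Of the 102 genes with a count, 54.9% were found in more lesion than sham libraries and 17.6% in more sham than lesion libraries. Over all genes with a count the same shares were 56.7% and 15.4%, so that the guidance genes lay near the background. Of the 105 genes, 11 had a count in all 20 libraries, 8 ligands, 2 receptors and UNC50, beside 4655 of all 32266 genes. Of the 102 with a count, 15 were found in at most 3 libraries, beside 5624 of all 23989 genes with a count.

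**Figure D5:**
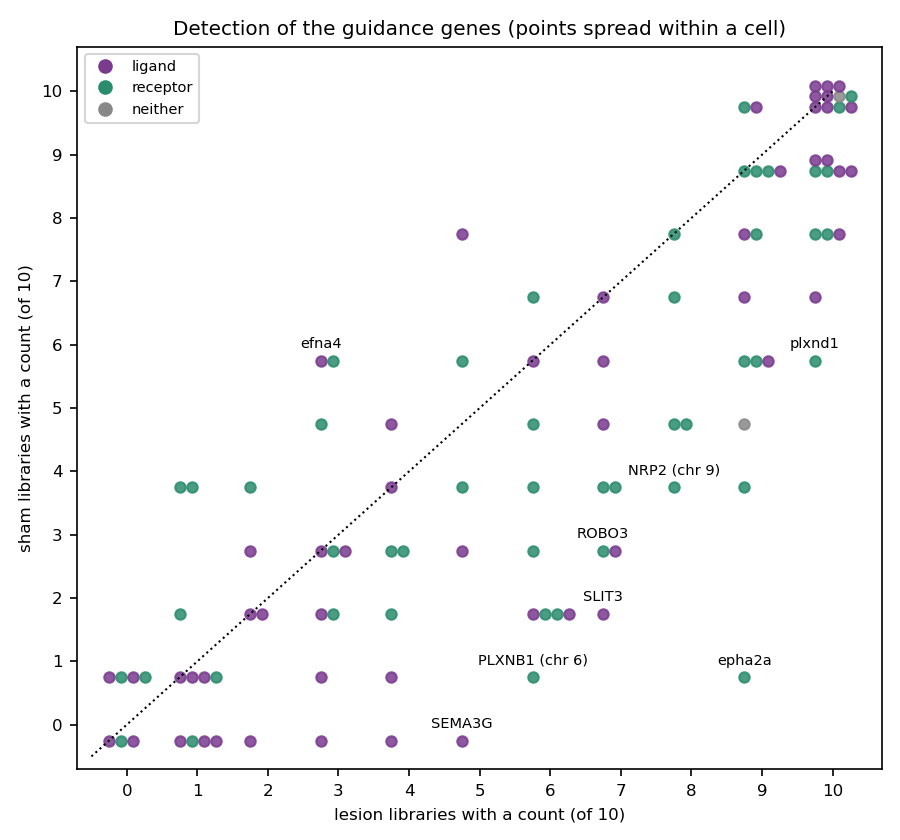
Number of lesion libraries (x axis) and of sham libraries (y axis) in which each of the 105 genes had a count, with points spread within a cell and coloured by role. More points lie below the diagonal, where epha2a stands at 9 lesion libraries and 1 sham library, than above it.

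Genes that carry guidance signals on or into the cell were followed in a separate list of co-receptors and intracellular partners. Of 139 genes of the list, 94 were tested, 5 rose and 3 fell (8.51%, beside 7.58% of all genes), with a median log2 fold change of 0.08. sdcbp2, a PDZ protein of the syntenin family that binds syndecans, had 935, 1274 and 1765 CPM in lesion libraries, against 184, 300.3 and 545 CPM in sham libraries, with no overlap. Its log2 fold change was 1.98 ± 0.20 (adjusted p = 2.1e-07, edgeR). sdc4, a syndecan of the cell surface, had 502, 694 and 825 CPM in lesion libraries, against 179, 267 and 540 CPM in sham libraries, with a log2 fold change of 1.21 ± 0.19 (adjusted p = 7e-05).

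The other genes that rose act inside the cell. They were GSK3B, a kinase downstream of semaphorins, at 1.53 ± 0.32 (adjusted p = 0.0025, edgeR), the small GTPase gene rac1a at 1.31 ± 0.29 (0.0044) and RND3 (ENSDARG00000076799), a GTPase that opposes RhoA, at 1.69 ± 0.42 (0.0107), each as log2 fold change of lesion over sham. Lower after lesion were SH2D3C (ENSDARG00000104555), an adaptor that binds Eph receptors, at -0.95 ± 0.18 (0.0011), RASA1 (ENSDARG00000073665), a Ras GTPase-activating protein, at -1.40 ± 0.35 (0.0104), and DPYSL5 (ENSDARG00000059311), a protein of the collapsin response mediator family, at -1.28 ± 0.39 (0.0421). The DPYSL5 call held in 6 of the 20 fits that left out 1 library. With detected genes per library as a covariate 1 of the 8 calls, sdcbp2, held, and the log2 fold change was 0.40 for sdc4, 0.69 for GSK3B and -0.40 for SH2D3C. In row B alone sdcbp2 and sdc4 held, with 0.82 for RND3, 0.74 for rac1a and -0.50 for SH2D3C, and in row A alone RND3 stood at 2.84. Calls over all genes also became fewer with the covariate and in row B alone, as given below. Without lesion replicates 2, 9 and 10 the calls of GSK3B, RND3 and DPYSL5 were lost. The second genes of the symbols that fell had log2 fold changes above 0 and did not pass in edgeR. They were SH2D3C (ENSDARG00000028099) at 1.75 ± 1.28, RASA1 (ENSDARG00000035535) at 0.08 ± 0.80 and DPYSL5 (ENSDARG00000011141) at 0.27 ± 0.15. limma-voom called this SH2D3C gene higher. This DPYSL5 gene had medians of 826 CPM in lesion and 651 CPM in sham libraries, against 29.2 and 75.7 CPM for the called one. Beside rac1a, RAC1 (ENSDARG00000087954) lay at -0.70 ± 1.16.

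Markers of other cells were measured beside these results. GFAP, FOXJ1 and S100B, of astroglia and ependymal cells, were higher after lesion, with adjusted p of 0.0296, 0.0005 and 0.0063 (edgeR). The log2 fold changes of these genes were 3.68, 7.47 and 1.18. GFAP averaged 209 CPM in lesion libraries and 16.3 CPM in sham libraries. FOXJ1 averaged 81.2 CPM in lesion libraries, with counts in 9 of them, and 0.446 CPM in sham libraries, with counts in 3. Of the 9 tested genes of that list 3 rose while 3 fell. Those that fell were SLC1A3 (ENSDARG00000104431) and both GLUL genes. Their log2 fold changes were -1.88, -0.84 and -1.11, with adjusted p of 4e-07, 0.0007 and 1.2e-05 (edgeR). The summed level of the list was 4567 to 8889 CPM in lesion libraries and 7042 to 11275 CPM in sham libraries. The GLUL genes weigh heavily in this sum, with means of 2275 and 1404 CPM in lesion libraries and 4082 and 3036 CPM in sham libraries. None of 8 tested neuron markers passed, and their list summed to 395 to 1126 CPM in lesion libraries and 357 to 1063 CPM in sham libraries. Of the microglia list apoeb rose, at 7393 CPM in lesion libraries and 691 CPM in sham libraries, and the other 11 genes summed to 0.126 to 530.4 CPM (median 12.6) in lesion libraries and 0.122 to 171 CPM (median 12.9) in sham libraries, with LCP1, c1qa and c1qb at 0 in all libraries. Endothelial markers summed to 2.196 to 98.6 CPM in lesion libraries and 0 to 26.4 CPM in sham libraries. Markers of mural cells and fibroblasts summed to 45.9 to 279 CPM in lesion libraries and 36.2 to 185 CPM in sham libraries. Neither list had a call, but only 1 of 8 endothelial genes and 2 of 9 mural and fibroblast genes were tested. The part of these cells in the guidance genes was not tested. The titles also place the libraries in rows A and B. With the row as a covariate on all 20 libraries, the calls of rtn4a and EFNA1 on chromosome 19 both held. They did not hold within either row alone, where there are fewer libraries. For rtn4a the log2 fold change was 0.38 in row A and 0.54 in row B, with adjusted p of 0.288 and 0.280 (edgeR). For EFNA1 on chromosome 19 it was -1.25 in row A and -1.43 in row B, with adjusted p of 0.0862 and 0.251. When detected genes per library, a number that separates the groups, entered the fit as a covariate, rtn4a stood at 0.65 (adjusted p = 0.229) and this EFNA1 gene at -0.88 (adjusted p = 0.848).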

How the data were processed

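The deposited table holds the authors' whole-number counts of reads for each gene in 20 libraries. The submitters' processing notes name bcl2fastq 2.19.1, GSNAP, featureCounts 1.6.2 and the build GRCz10. Per the file headers, genes followed Ensembl release 87, mapping quality was at least 1 and strand was ignored, so genes that overlap on opposite strands cannot be told apart. Spike-in sequences (92 rows, 2 counts) were left out. How many cells made a library is not stated in the labels.

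Counts of lesion and sham libraries were compared with edgeR 4.0.16 in R 4.3.3 (filterByExpr, TMM, quasi-likelihood fit on group, two-sided F test, Benjamini-Hochberg over 10467 genes, threshold 0.05). Each standard error is the absolute log2 fold change over the root of F, and 95% intervals span 1.96 standard errors either way. CPM and TPM were computed with Python 3.11.15, TPM from the deposited exon lengths. Alternatives were DESeq2 1.42.0 (size factors, and its own test), limma-voom (limma 3.58.1), no filter, covariates, and libraries left out. Of the sets left out, lesion replicates 1, 5, 6 and 8 have columns 7 to 9 in their titles. Lesion replicates 2, 9 and 10 are those of row A with columns 10 to 12.

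The guidance genes and lists were chosen with earlier results of these data known. Named genes were the called ones, the 6 ligands and 6 receptors with the highest mean TPM, up to 6 further tested genes with the smallest p, up to 6 untested genes with the most counts, and up to 8 called genes of the other guidance list, which has 98 symbols, 3 of them (sdc3, lgals1, srgap2) without a match. Any others are said to be named after their values were seen, or are given with their family.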

Additional observations from a re-analysis of the deposited data

Results flagged for a closer look

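Among the 40 sets of 10 libraries formed by the 20 named guidance genes in each group, 8 had a highest library set apart from the rest, its gap to the next one being a larger part of the whole range than Dixon's 95% critical value allows. Chance alone gives about 1 in 20 such sets where values follow a normal distribution, and most of these genes are at 0 in many libraries. In lesion libraries they were RTN4R at 54.1 CPM in replicate 5 (next 25.6), epha2a at 74.8 CPM in replicate 7 (next 33.7), PLXNC1 at 41.8 CPM in replicate 5 (next 10.4) and NRP1 at 46.4 CPM in replicate 4 (next 17.0). In sham libraries they were ROBO3 at 29.9 CPM in replicate 8 (next 4.71), SLIT3 at 1.44 CPM in replicate 7 (next 0.110), epha2a at 0.609 CPM in replicate 3 and PLXNB1 (ENSDARG00000017211) at 0.143 CPM in replicate 10, both with 0 in the other 9. Neither of the called genes, rtn4a and EFNA1 on chromosome 19, was among them.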

How the results depend on the processing

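No paired analysis was made, since the labels give no pairing of lesion with sham libraries. Replicates were numbered in the order of the sample records. The count of guidance genes called, 2 of 31 tested, became 5 of 31 with DESeq2's own test, 5 of 31 with limma-voom and 13 of 102 without the filter. It became 4 without lesion replicates 1, 5, 6 and 8, where epha2a and SLIT3 joined the first 2. In row B alone it was 1, epha2a, and with detected genes as a covariate and in row A alone it was 0. For ligands, 2 called, the counts were 5 with DESeq2's own test, 4 with limma-voom, 8 of 52 without the filter, and 0 with the covariate, in row A and in row B. For receptors, 0 called, they were 1 with limma-voom, 5 of 48 without the filter, 1 in row B and 1 without lesion replicates 1, 5, 6 and 8. The last 2 of these calls were epha2a, as was every receptor called when 1 library was left out. As stated above, such fits are no further test of epha2a. The 8 calls of the other guidance list, of 94 tested, became 15 with limma-voom and 16 of 134 without the filter. They became 1 with the covariate, 2 in row B and 5 without lesion replicates 2, 9 and 10. Over all genes, 793 calls (7.58% of those tested) became 1103 (10.5%) with DESeq2's own test, 1767 (16.9%) with limma-voom and 3538 (14.7%) without the filter. They became 176 of the same 10467 genes with the covariate and 247 in row B. No share over all genes is given for row A, row B or the fits without several lesion replicates. The guidance counts of those fits are therefore not set against a background. Leaving out 1 library gave 1 to 4 guidance genes, 1 to 3 ligands, 0 to 1 receptors, 7 to 9 of the other list and 690 to 893 genes overall. Near 0, signs turned: SEMA5A was 0.83 with limma-voom and 0.22 in row A, and -0.23 to 0.083 without 1 library. SEMA6D was -0.042 with DESeq2 size factors and with its test, -0.014 with title row as a covariate, -0.24 in row A, and -0.14 to 0.14 without 1 library. rtn4b was -0.17 with the covariate, RTN4R 0.52 and EPHA4 (ENSDARG00000054454) 2.48 with limma-voom, the last -0.42 to 0.17 without 1 library. The causes were not tested. The filter on low counts left 71 guidance genes with a count outside the test.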
